A study of Mus musculus with 4 samples.

Results

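The glycolysis and hypoxia response genes described here are a list of 34 mouse genes. The list holds 15 glycolytic enzymes, from hexokinase to lactate dehydrogenase, and 19 other genes: 5 for glucose, lactate and pyruvate transport or for the control of glycolysis, 4 hypoxia-inducible factor (HIF) subunits and HIF prolyl hydroxylases, and 10 further targets of HIF. Each symbol was matched to its Entrez gene ID, and all 34 were found among the 17621 genes of the files. Of these, 31 had a mean of at least 1 CPM (counts scaled to a common library size) over the libraries, as did 12976 genes in all. Slc16a3, Car9 and Ankrd37 did not reach that level.

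RNA was sequenced from neural stem cells in primary culture, taken from the cortex of newborn mice, which carried loxP-flanked Seh1, a subunit of the nuclear pore's Y complex. There were 4 groups of 1 library each. The iKO cells (labelled cmv-cre-ert,seh1 f/f) at day 3 had been moved to differentiation medium, that is, without the growth factors EGF and bFGF, and the Ctrl cells (labelled Seh1 f/f) at day 3 had been treated likewise. The iKO and Ctrl cells at day 0 were in growth medium with both factors. All groups shared the floxed Seh1 alleles, and the recombinase named in the iKO genotype is absent from the Ctrl genotype, so loss of Seh1 and presence of the recombinase cannot be told apart. Day and medium changed together and cannot be told apart either. The CMV promoter in that genotype's name is active in many cell types, so deletion would not be limited to one kind of cell. How many animals each library came from, and whether an inducer was given, is not stated in the sources used here.

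In glycolysis, glucose enters through carriers such as Slc2a1 (GLUT1), is phosphorylated by hexokinase, split by aldolase and turned into pyruvate. Lactate dehydrogenase interconverts pyruvate and lactate, and monocarboxylate carriers such as Slc16a1 (MCT1) move both across the membrane. HIF is a heterodimer whose alpha subunits (Hif1a, Epas1) are hydroxylated by Egln enzymes and then degraded when oxygen is present. That control acts on the protein, which RNA sequencing does not measure. In low oxygen HIF binds short DNA elements with the core ACGTG or GCGTG and activates many glycolytic genes as well as angiogenic factors such as Vegfa. Neural progenitors are known to rely on aerobic glycolysis and to lower it as they differentiate.

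The rounded read counts totalled 19611748 in the iKO and 19745908 in the Ctrl library at day 3, and 20625852 in the iKO and 21040586 in the Ctrl library at day 0. Seh1l, the gene of Seh1, had 11.0 CPM in iKO and 33.2 CPM in Ctrl cells at day 3, and 19.2 CPM in iKO and 40.3 CPM in Ctrl cells at day 0, which followed the labels. All 10 neural stem and progenitor markers were above the minimum level, but they did not move together. At day 3, 4 of the 10 were at least 1.5-fold higher and 1 was lower in iKO cells. Among all genes above that level, 15.1% were higher and 11.3% lower by this limit. Of the 10 markers, 5 were above and 5 below equal levels, where 48.7% of all genes were above. Vim had 2156 CPM in iKO cells, against 1125 CPM in Ctrl cells, and Fabp7 had 1367 CPM in iKO cells, against 2368 CPM in Ctrl cells. Each difference compares single libraries, so none could be set against the spread between cultures, and p-values are not given. The intervals beside ratios are exact conditional 95% intervals of the counts and cover counting error only. The limit for calling a gene higher or lower was 2-fold on the log2(CPM + 1) scale, which understates ratios of low genes. In these bulk libraries, fewer cells of a type and less RNA per cell cannot be told apart.

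Promoters were read from RefSeq windows (GRCm38.p6) from 250 bases before to 50 bases after an annotated transcription start, and a gene can have several such starts. The windows of 32 members were available, 48 in all, and the cores ACGTG and GCGTG were searched on both strands, where overlapping matches such as those in CACGTG count on each strand. At least 1 match was present in 28 of 32 members (87.5%), in 12 of 15 enzymes (80.0%) and in 16 of 17 other members (94.1%). The same held for 67.8% of the 10349 genes above the minimum level with a window and for 46.7% of all 27025 genes in the table. Genes with several windows have more chances of a match. Per window, a match was present in 75.0% of the members' 48 windows, in 75.0% for enzymes and other members alike, against 61.4% of the 13339 windows of genes above the minimum level. Among genes more than 2-fold apart between iKO and Ctrl cells at day 3, Tpi1, Gpi1 and Apln had no match in this window, whereas Slc16a1 had 5. The 150 bases before a start are printed here, 5′ to 3′ on the gene's strand with matches in capitals, for genes whose RNA is described in detail further on. Ldha (2 windows), Pfkfb3 (2) and Mxi1 (3) have several windows, and the stretch printed is the one with the most matches. For these genes it lies before an alternative start inside the gene's annotated span. Pgk1 and Ldha, with matches, and Tpi1, without one, are glycolytic enzymes that were higher in iKO than in Ctrl cells at day 3. Slc2a1 and Slc16a1 are the carriers that were higher, Apln is the member with the largest ratio, and Mxi1 and Pfkfb3 are members that were lower.
Pgk1, chrX:106186950-106187099, plus strand: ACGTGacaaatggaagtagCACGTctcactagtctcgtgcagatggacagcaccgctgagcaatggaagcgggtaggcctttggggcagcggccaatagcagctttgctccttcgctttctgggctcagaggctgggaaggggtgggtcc
Ldha, chr7:46845654-46845803, plus strand: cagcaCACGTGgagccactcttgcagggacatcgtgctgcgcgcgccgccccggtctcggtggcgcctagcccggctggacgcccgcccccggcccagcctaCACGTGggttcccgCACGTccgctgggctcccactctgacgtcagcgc
Tpi1, chr6:124814159-124814308, minus strand: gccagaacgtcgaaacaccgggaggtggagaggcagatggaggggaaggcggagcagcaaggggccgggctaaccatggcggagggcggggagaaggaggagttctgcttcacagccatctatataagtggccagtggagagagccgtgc
Slc2a1, chr4:119108595-119108744, plus strand: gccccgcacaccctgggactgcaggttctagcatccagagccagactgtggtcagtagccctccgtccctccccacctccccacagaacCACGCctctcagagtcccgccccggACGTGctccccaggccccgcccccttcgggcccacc
Slc16a1, chr3:104638514-104638663, plus strand: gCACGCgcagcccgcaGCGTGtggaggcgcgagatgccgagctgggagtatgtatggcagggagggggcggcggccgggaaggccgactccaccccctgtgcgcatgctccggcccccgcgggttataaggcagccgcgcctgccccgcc
Apln, chrX:48034854-48035003, minus strand: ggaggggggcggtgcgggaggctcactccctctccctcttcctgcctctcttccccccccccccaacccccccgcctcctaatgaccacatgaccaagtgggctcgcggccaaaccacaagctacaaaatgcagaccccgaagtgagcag
Mxi1, chr19:53329263-53329412, plus strand: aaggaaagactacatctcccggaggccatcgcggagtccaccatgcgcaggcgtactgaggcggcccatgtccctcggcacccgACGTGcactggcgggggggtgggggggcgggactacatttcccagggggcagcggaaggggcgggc
Pfkfb3, chr2:11502091-11502240, minus strand: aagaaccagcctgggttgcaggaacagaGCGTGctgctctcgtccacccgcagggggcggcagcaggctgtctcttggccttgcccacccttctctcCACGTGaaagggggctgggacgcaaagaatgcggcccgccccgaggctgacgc
In Ldha the capitals include the palindrome CACGTG at 2 places, and in Pfkfb3 at 1 place. Genes that were higher and genes that were lower in iKO cells both carried the cores. A match is a description of the sequence only.

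**Figure D1:**
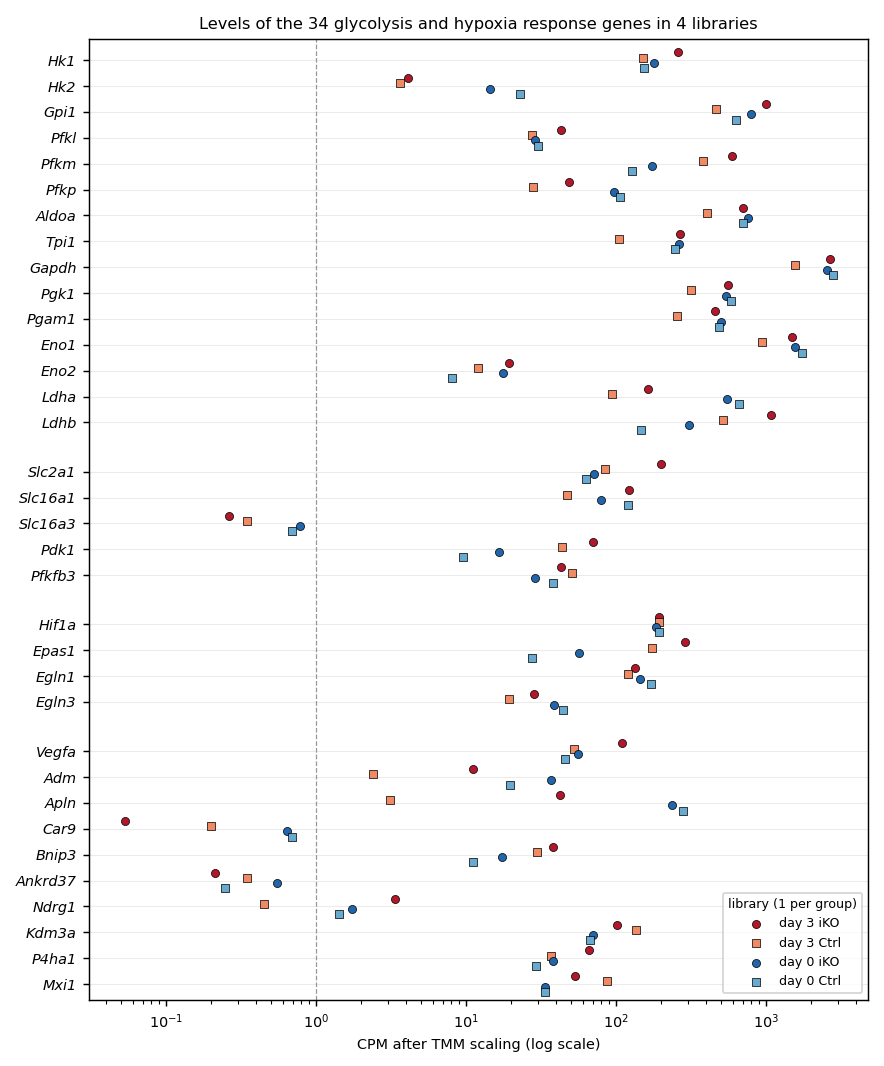
Level of each of the 34 genes in the 4 libraries (CPM after TMM scaling, log scale), with enzymes at the top, then transport and control genes, HIF factors and hydroxylases, and other HIF targets. Most enzymes have their lowest point in the day 3 Ctrl library, as for Tpi1 with 105 CPM there against 268 CPM in the day 3 iKO library, and the dashed line marks 1 CPM.

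At day 3, 48.7% of all genes had a log2 ratio of iKO to Ctrl above 0. All 15 glycolytic enzymes did, although the counting interval of Hk2 (0.817 to 1.59) included equal levels. Their summed level was 9373 CPM in iKO and 5274 CPM in Ctrl cells at day 3, and 8357 CPM in iKO and 8438 CPM in Ctrl cells at day 0, so the Ctrl library at day 3 stood below the other three. The median log2 ratio of iKO to Ctrl over the 15 enzymes was 0.78 at day 3, with a range of 0.15 to 1.34, against -0.01 over all 12976 genes. Of the 15 enzymes, 3 were at least 2-fold higher and 0 lower, where 6.27% of all genes were higher and 4.76% lower. At a 1.5-fold limit, 14 enzymes were higher and 0 lower, where 15.1% of all genes were higher and 11.3% lower. The ratios of 12 enzymes thus lay in a band below 2-fold.

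The largest enzyme ratio at day 3 was that of Tpi1 (chr6:124810586-124814158 in GRCm38), which interconverts the triose phosphates made by aldolase. Tpi1 had 268 CPM in iKO and 105 CPM in Ctrl cells at day 3, and 262 CPM in iKO and 249 CPM in Ctrl cells at day 0. It was 2.55-fold higher in iKO cells at day 3 (2.43 to 2.69) and 1.05-fold higher at day 0 (1.01 to 1.09), and the day 3 Ctrl library alone was low. Gpi1 (chr7:34201327-34230336), which converts glucose 6-phosphate to fructose 6-phosphate, had 1006 CPM in iKO and 466 CPM in Ctrl cells at day 3, and 796 CPM in iKO and 632 CPM in Ctrl cells at day 0. Its ratio was 2.16 at day 3 (2.10 to 2.21) and 1.26 at day 0 (1.23 to 1.29), with iKO cells higher on both days. Ldhb (chr6:142490249-142507957), the lactate dehydrogenase subunit typical of oxidative tissues, had 1074 CPM in iKO and 521 CPM in Ctrl cells at day 3, and 305 CPM in iKO and 146 CPM in Ctrl cells at day 0. It was 2.06-fold higher in iKO cells at day 3 (2.01 to 2.11) and 2.09-fold higher at day 0, so that its ratio was alike on both days. Scaled by library totals instead, the day 3 log2 ratio of Ldhb was 0.96, just below the 2-fold limit.

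The enzymes of the payoff phase were close together. Gapdh, which oxidises glyceraldehyde 3-phosphate, had 2684 CPM in iKO and 1572 CPM in Ctrl cells at day 3, and 2569.9 CPM in iKO and 2797 CPM in Ctrl cells at day 0. Pgk1, the first ATP-producing enzyme of the pathway, had 562 CPM in iKO and 315 CPM in Ctrl cells at day 3, and 539 CPM in iKO and 589 CPM in Ctrl cells at day 0. Both genes were higher in iKO cells at day 3, 1.71-fold for Gapdh (1.68 to 1.73) and 1.78-fold for Pgk1 (1.73 to 1.84), and both were within 10% of Ctrl at day 0. Pgam1, which moves the phosphate of phosphoglycerate, had 458 CPM in iKO and 254 CPM in Ctrl cells at day 3, and 505 CPM in iKO and 485 CPM in Ctrl cells at day 0. Eno1, the main enolase, had 1481 CPM in iKO and 935 CPM in Ctrl cells at day 3, and 1559 CPM in iKO and 1726 CPM in Ctrl cells at day 0. The ratios at day 3 were 1.81 for Pgam1 (1.74 to 1.87) and 1.58 for Eno1 (1.55 to 1.61), and again the day 3 Ctrl library was the low one. Aldoa, the ubiquitous aldolase, shared this order, with 706 CPM in iKO and 407 CPM in Ctrl cells at day 3, and 755 CPM in iKO and 705 CPM in Ctrl cells at day 0.

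Hexokinase and phosphofructokinase catalyse regulated steps, and their isoforms differed more among the libraries. Hk1, the hexokinase dominant in brain, had 261 CPM in iKO and 151 CPM in Ctrl cells at day 3, and 179.5 CPM in iKO and 154 CPM in Ctrl cells at day 0. Hk2, the inducible hexokinase and a HIF target, had 4.13 CPM in iKO and 3.63 CPM in Ctrl cells at day 3, and 14.5 CPM in iKO and 22.8 CPM in Ctrl cells at day 0. Hk1 was 1.72-fold higher in iKO cells at day 3 (1.64 to 1.80), whereas the interval of Hk2 ran from 0.817 to 1.59 and its difference was not detectable at this depth. At day 0 Hk2 was 1.57-fold lower in iKO cells (1.35 to 1.81). Pfkm had 595 CPM in iKO and 381 CPM in Ctrl cells at day 3, and 173 CPM in iKO and 127 CPM in Ctrl cells at day 0. Pfkl had 42.8 CPM in iKO and 27.7 CPM in Ctrl cells at day 3, and 29.0 CPM in iKO and 30.0 CPM in Ctrl cells at day 0. Pfkp had 48.6 CPM in iKO and 28.1 CPM in Ctrl cells at day 3, and 97.5 CPM in iKO and 106 CPM in Ctrl cells at day 0. All 3 phosphofructokinase genes were thus higher in iKO cells at day 3, by 1.56-fold for Pfkm, 1.55-fold for Pfkl and 1.73-fold for Pfkp. The log2 ratio of Pfkp was 0.77 from counts and 1.00 from FPKM (fragments per kilobase of transcript, scaled to the library), and its reads were spread over 6 transcript models whose shares differed between libraries.

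At day 0 the enzymes were near their Ctrl level in iKO cells, with a median log2 ratio of 0.06 against -0.06 over all genes. Of 15 enzymes, 2 were at least 2-fold higher and 0 lower, where 2.67% of all genes were higher and 0.331% lower. At 1.5-fold, 2 were higher and 1 was lower, where 8.92% of all genes were higher and 5.51% lower. The 2 higher enzymes were Ldhb and Eno2, the neuronal enolase. Eno2 had 19.4 CPM in iKO and 12.1 CPM in Ctrl cells at day 3, and 17.7 CPM in iKO and 8.07 CPM in Ctrl cells at day 0, a ratio of 1.60 at day 3 (1.36 to 1.89) and 2.19 at day 0 (1.82 to 2.65). In log2 ratio, 8 enzymes were above and 7 below 0 at day 0, where 43.5% of all genes were above. With library totals 12 enzymes were above, since Gapdh, Pfkl, Pfkp and Pgk1 turned sign.

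**Figure D2:**
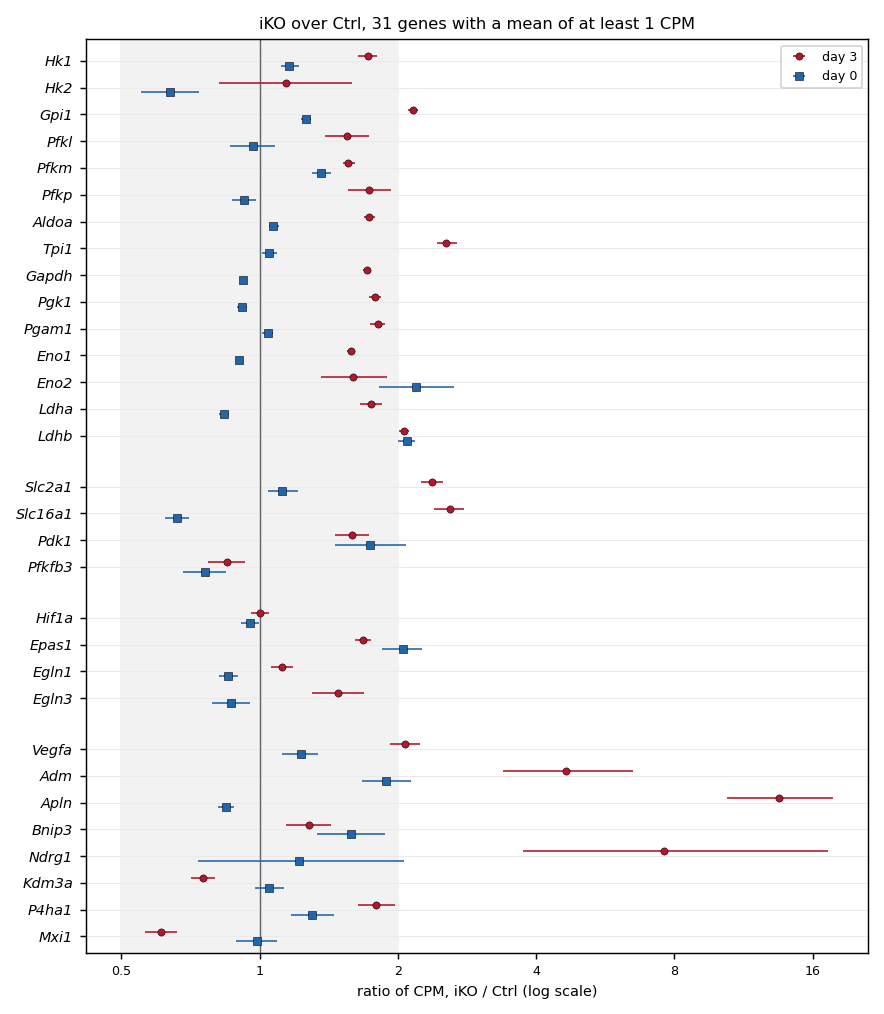
Ratio of CPM in iKO over Ctrl cells for the 31 members above the minimum level, at day 3 (circles) and day 0 (squares), on a log scale, where bars are 95% counting intervals and the grey band spans ratios within 2-fold. The day 3 circles of the enzymes lie to the right of 1, up to 2.55 for Tpi1, the day 0 squares scatter around 1, and Apln lies furthest right at day 3 with 13.5.

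The difference between the days was described by subtracting the log2 ratio of iKO to Ctrl at day 0 from that at day 3. Over the 15 enzymes this difference had a median of 0.77, against 0.06 over all genes. It was above 0 for 13 enzymes, where 55.6% of all genes were above 0, and below 0 for Ldhb and Eno2. Tpi1 (1.27) and Ldha (1.05) were at least 1 log2 unit higher and 0 enzymes lower, where 3.71% of all genes were higher and 5.50% lower. Over all genes 482 were higher and 714 lower, and with library totals 298 and 960. The difference has no test, since each group is 1 library.

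The same values read along the days show that most enzymes in Ctrl cells were lower at day 3 than in growth medium, whereas in iKO cells most stayed near their day 0 level. The median log2 ratio of day 3 to day 0 over the 15 enzymes was 0.06 in iKO and -0.83 in Ctrl cells, against -0.01 and -0.02 over all genes. With library totals the enzyme median in iKO cells was -0.08, and that of all genes -0.13. In iKO cells 2 enzymes were at least 2-fold higher and 2 lower, where 11.2% of all genes were higher and 11.4% lower. In Ctrl cells 2 were higher and 4 lower, where 14.6% of all genes were higher and 15.1% lower. In iKO cells 1459 genes in all were higher and 1485 lower, and with deposited FPKM 931 and 1473. The 6 enzymes from Aldoa to Eno1 were 1.73-fold to 2.37-fold lower at day 3 in Ctrl cells, whereas their day 3 level was between 0.906 and 1.04 of that at day 0 in iKO cells. Tpi1 was the lowest of these in Ctrl cells, at 2.37-fold lower (2.25 to 2.49).

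**Figure D3:**
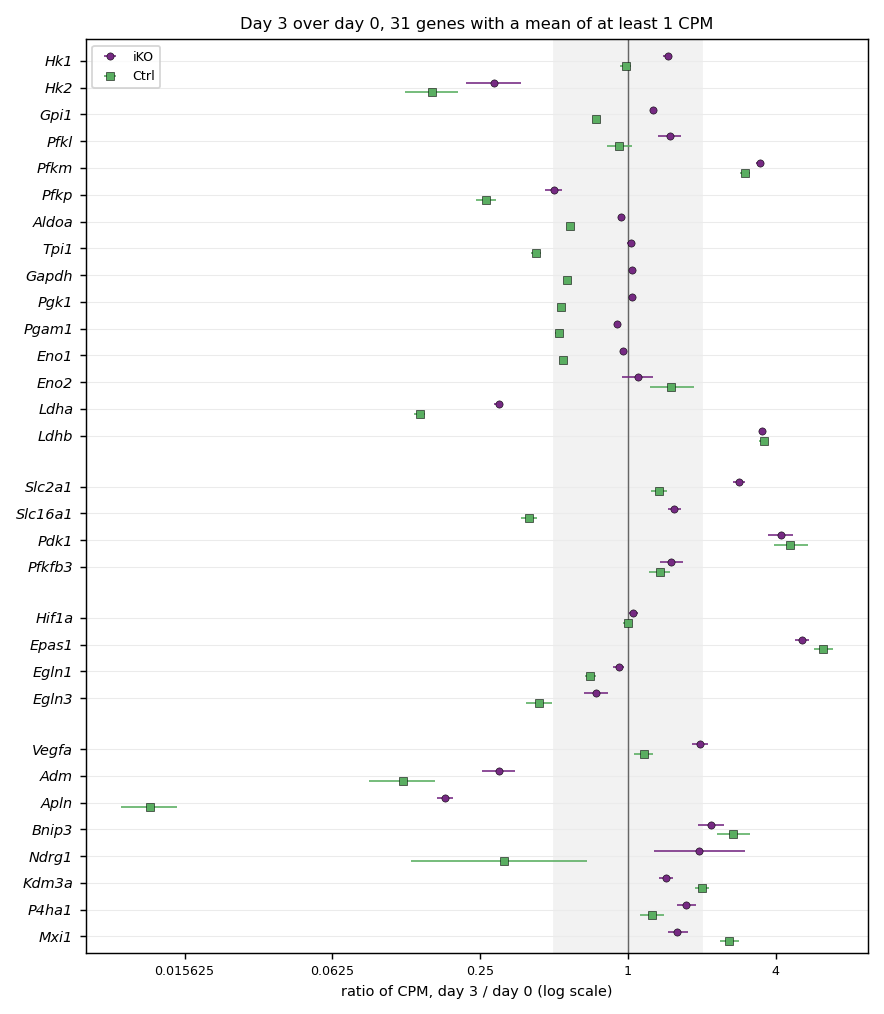
Ratio of CPM at day 3 over day 0 for the 31 members above the minimum level, in iKO cells (circles) and Ctrl cells (squares), on a log scale with 95% counting intervals. For the enzymes from Aldoa to Eno1 the iKO circles lie between 0.906 and 1.04 and the Ctrl squares further left, Ldhb and Pfkm lie to the right of 2 in both genotypes, and the Ctrl square of Apln lies furthest left.

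The make-up of the isozymes followed the day in both genotypes. Levels of different genes were compared per length, in FPKM, for which no counting interval is given. Ldha, the lactate dehydrogenase subunit favoured in glycolytic cells and a HIF target, had 164 CPM in iKO and 94.1 CPM in Ctrl cells at day 3, and 554 CPM in iKO and 662 CPM in Ctrl cells at day 0. Day 3 was 3.37-fold lower than day 0 for Ldha in iKO cells (3.24 to 3.51) and 7.04-fold lower in Ctrl cells (6.71 to 7.39), and the genotypes stood 1.75-fold apart at day 3 with iKO higher (1.65 to 1.85). Ldhb moved the other way and was 3.52-fold higher at day 3 in iKO cells (3.42 to 3.62) and 3.57-fold higher in Ctrl cells (3.43 to 3.72). Of the FPKM of both lactate dehydrogenase genes, Ldhb therefore held 89.1% in iKO and 87.4% in Ctrl cells at day 3, and 40.8% in iKO and 21.7% in Ctrl cells at day 0. The shares were close between genotypes at day 3, and the iKO share at day 0 was nearer to that of day 3 than the Ctrl share was.

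Pfkm held 88.4% of the phosphofructokinase FPKM in iKO and 90.0% in Ctrl cells at day 3, and 61.1% in iKO and 51.6% in Ctrl cells at day 0. Pfkp, the platelet-type isoform, held 5.92% in iKO and 4.13% in Ctrl cells at day 3, and 29.7% in iKO and 37.4% in Ctrl cells at day 0. The muscle-type isoform was thus the leading one in all 4 libraries, and more so at day 3. Hk2 held 1.13% of the FPKM of Hk1 and Hk2 in iKO and 1.65% in Ctrl cells at day 3, and 5.28% in iKO and 9.51% in Ctrl cells at day 0. Eno2 held under 1% of the enolase FPKM in every library. Aldoc, the aldolase of astrocytes and not a member of the list, held 55.3% of the FPKM of Aldoa and Aldoc in iKO and 69.6% in Ctrl cells at day 3, and 11.8% in iKO and 11.6% in Ctrl cells at day 0. At day 3 Aldoc itself had a ratio of iKO to Ctrl of 0.936 (0.922 to 0.951), unlike that of Aldoa, which was 1.73 (1.69 to 1.78).

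**Figure D4:**
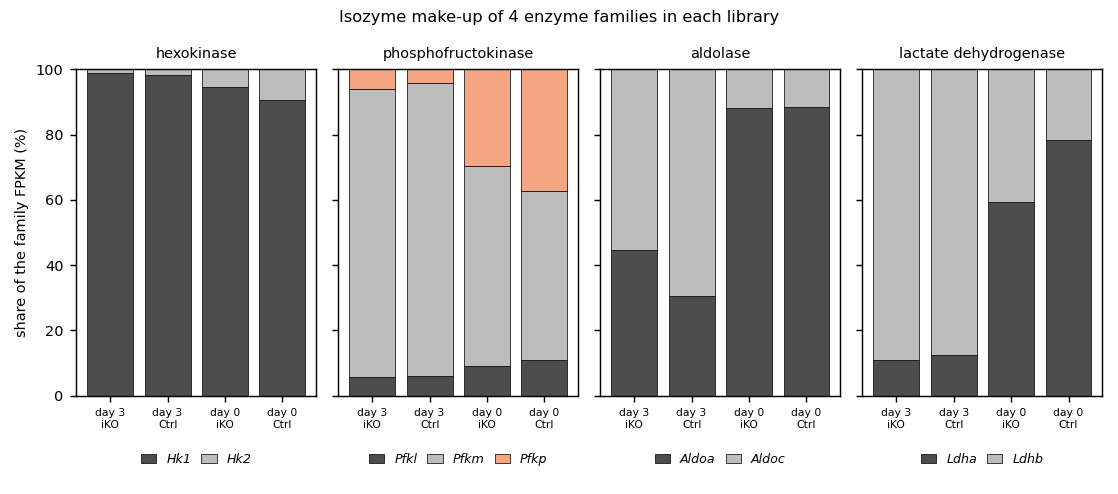
Share of each isozyme in the summed FPKM of its family, for hexokinase, phosphofructokinase, aldolase and lactate dehydrogenase, in the 4 libraries. Ldhb and Pfkm hold more at day 3 than at day 0, with Ldhb at 89.1% in iKO and 87.4% in Ctrl cells at day 3 and at 40.8% in iKO and 21.7% in Ctrl cells at day 0.

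Outside the enzymes, 16 of 19 members were above the minimum level. Of these, 6 were at least 2-fold higher in iKO cells at day 3 and 0 lower, with a median log2 ratio of 0.70. At day 0, 1 was higher and 0 lower, with a median of 0.12. Among all genes, 6.27% were higher and 4.76% lower at day 3, and 2.67% were higher and 0.331% lower at day 0. At 1.5-fold, 9 were higher and 1 was lower at day 3, where 15.1% of all genes were higher and 11.3% lower. At day 0, 4 were 1.5-fold higher and 1 was lower, where 8.92% of all genes were higher and 5.51% lower. From day 0 to day 3 in iKO cells, 4 were at least 2-fold higher and 2 lower, against 11.2% and 11.4% of all genes. In Ctrl cells 4 were higher and 4 lower, against 14.6% and 15.1% of all genes. These genes did not move as one group, and they are given by role.

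Among the transport genes, Slc2a1 (chr4:119108745-119137330), the basal glucose carrier and a HIF target, had 201 CPM in iKO and 84.7 CPM in Ctrl cells at day 3, and 70.9 CPM in iKO and 63.4 CPM in Ctrl cells at day 0. It was 2.37-fold higher in iKO cells at day 3 (2.24 to 2.51) and 1.12-fold higher at day 0 (1.04 to 1.21), and the day 3 iKO library alone was high. Slc16a1 (chr3:104638664-104658462), the carrier MCT1, had 123 CPM in iKO and 47.4 CPM in Ctrl cells at day 3, and 79.5 CPM in iKO and 120.3 CPM in Ctrl cells at day 0. It was 2.59-fold higher in iKO cells at day 3 (2.40 to 2.79) but 1.51-fold lower at day 0 (1.42 to 1.61), so that the direction differed between the days. Slc16a3, the lactate exporter MCT4 and a HIF target, had 5 counts in iKO and 7 in Ctrl cells at day 3, and 17 in iKO and 14 in Ctrl cells at day 0, too few to compare.

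Pdk1, a kinase that inactivates pyruvate dehydrogenase, had 69.9 CPM in iKO and 44.0 CPM in Ctrl cells at day 3, and 16.7 CPM in iKO and 9.59 CPM in Ctrl cells at day 0. It was higher in iKO cells on both days, 1.59-fold at day 3 (1.46 to 1.73) and 1.74-fold at day 0 (1.46 to 2.08), and over 4-fold higher at day 3 than at day 0 in both genotypes. Pfkfb3, which makes the activator fructose 2,6-bisphosphate and is named here after its values were seen, had 43.3 CPM in iKO and 51.0 CPM in Ctrl cells at day 3, and 28.8 CPM in iKO and 37.9 CPM in Ctrl cells at day 0. It was lower in iKO cells on both days, 1.18-fold at day 3 (1.08 to 1.30) and 1.32-fold at day 0 (1.18 to 1.47). Of the 4 transport and control genes above the minimum level, Pfkfb3 alone was thus lower in iKO cells at day 3, and its ratio was small. Related genes, also named after their values were seen, did not share 1 direction. Pfkfb2 had 47.5 CPM in iKO and 55.7 CPM in Ctrl cells at day 3, and 35.0 CPM in iKO and 29.0 CPM in Ctrl cells at day 0. Pfkfb4 was slightly higher in iKO cells at day 3, with 207 counts in iKO and 201 in Ctrl cells. Pfkfb1 had 11 and 8 counts, too few to compare.

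Hif1a (chr12:73901324-73947554), the oxygen-regulated subunit of HIF-1, hardly differed among the libraries. Its level was 194 CPM in iKO and 194 CPM in Ctrl cells at day 3, and 185 CPM in iKO and 194 CPM in Ctrl cells at day 0. The ratio of iKO to Ctrl was 1.00 at day 3 (0.959 to 1.05) and 0.951 at day 0 (0.910 to 0.994), and its sign turned with library totals. Epas1 (chr17:86753864-86833410), the subunit of HIF-2 that is also abundant in astrocytes and endothelium, had 289.8 CPM in iKO and 173 CPM in Ctrl cells at day 3, and 56.7 CPM in iKO and 27.7 CPM in Ctrl cells at day 0. Epas1 was 1.68-fold higher in iKO cells at day 3 (1.61 to 1.75) and 2.05-fold higher at day 0 (1.85 to 2.26), and day 3 was 5.11-fold above day 0 in iKO cells and 6.24-fold above it in Ctrl cells. The prolyl hydroxylases Egln1 and Egln3, the second of which is itself a HIF target, were within 1.5-fold of Ctrl on both days and are named after their values were seen. Egln3 had 28.5 CPM in iKO and 19.3 CPM in Ctrl cells at day 3, and 38.4 CPM in iKO and 44.4 CPM in Ctrl cells at day 0, while Egln1 lay between 119.5 and 170.1 CPM.

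Among the other HIF targets, 2 peptide hormones were at least 2-fold higher in iKO cells at day 3. Apln (chrX:48025146-48034853), which encodes the apelin peptide, had 42.2 CPM in iKO and 3.13 CPM in Ctrl cells at day 3, and 235 CPM in iKO and 278 CPM in Ctrl cells at day 0. Its counts were 797 in iKO and 63 in Ctrl cells at day 3, and 5113 in iKO and 5650 in Ctrl cells at day 0. Both genotypes thus had a high level in growth medium, and the day 3 level was 5.55-fold lower in iKO cells (5.15 to 5.99) and 88.7-fold lower in Ctrl cells (69.2 to 116). The ratio of iKO to Ctrl was 13.5 at day 3 (10.4 to 17.7) and 0.844 at day 0 (0.813 to 0.877). The difference between the days, 3.63 in log2, was the largest among the members and, with this scaling and pseudocount, the highest of all 12976 genes. Adm (chr7:110627657-110629820), which encodes the vasodilator adrenomedullin, had 11.1 CPM in iKO and 2.39 CPM in Ctrl cells at day 3, and 37.1 CPM in iKO and 19.7 CPM in Ctrl cells at day 0. It was 4.64-fold higher in iKO cells at day 3 (3.38 to 6.49) and 1.88-fold higher at day 0 (1.67 to 2.13), and like Apln it was lower at day 3 in both genotypes. Vegfa (chr17:46016993-46032377), the angiogenic growth factor, had 109.5 CPM in iKO and 52.8 CPM in Ctrl cells at day 3, and 55.8 CPM in iKO and 45.5 CPM in Ctrl cells at day 0. Unlike the peptides, it was highest in the day 3 iKO library, with ratios of iKO to Ctrl of 2.07 at day 3 (1.92 to 2.23) and 1.23 at day 0 (1.12 to 1.34). Its day 3 log2 ratio of 1.04 was near the 2-fold limit and fell below it under 3 alternatives, with 0.96 by library totals, 0.99 with a pseudocount of 5 CPM and 0.91 from FPKM.

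P4ha1, a collagen prolyl hydroxylase, had 65.9 CPM in iKO and 36.8 CPM in Ctrl cells at day 3, and 38.2 CPM in iKO and 29.4 CPM in Ctrl cells at day 0, a ratio of 1.79 at day 3 (1.64 to 1.97). Bnip3, a mitophagy receptor, had 38.0 CPM in iKO and 29.7 CPM in Ctrl cells at day 3, and 17.4 CPM in iKO and 11.1 CPM in Ctrl cells at day 0, a ratio of 1.58 at day 0 (1.33 to 1.87). Both were higher in iKO cells on both days. Ndrg1, a stress-responsive gene, had few reads, with 64 counts in iKO and 9 in Ctrl cells at day 3, and 38 in iKO and 29 in Ctrl cells at day 0. Its ratio at day 3 was 7.58 with a wide interval (3.75 to 17.3), and its log2 ratio on the CPM + 1 scale was 1.60. That log2 ratio was 2.67 with a pseudocount of 0.1 CPM and 0.62, below the 2-fold limit, with 5 CPM. Against this direction, Mxi1, an antagonist of Myc, had 53.2 CPM in iKO and 87.2 CPM in Ctrl cells at day 3, and 33.4 CPM in iKO and 33.9 CPM in Ctrl cells at day 0. Kdm3a, a histone demethylase named here after its values were seen, had 101 CPM in iKO and 135 CPM in Ctrl cells at day 3, and 70.8 CPM in iKO and 67.3 CPM in Ctrl cells at day 0. At day 3 Mxi1 was 1.64-fold lower in iKO cells (1.52 to 1.78) and Kdm3a 1.33-fold lower (1.25 to 1.41). Car9, the hypoxia-induced carbonic anhydrase, had 1 count in iKO and 4 in Ctrl cells at day 3, and 14 in each library at day 0. Ankrd37 had 4 counts in iKO and 7 in Ctrl cells at day 3, and 12 in iKO and 5 in Ctrl cells at day 0, so neither of these strongly HIF-dependent genes was above the minimum level.

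The neighbouring pathways were read from 6 further lists. Of 17 further glycolysis genes above the minimum, 2 were at least 2-fold higher and 1 lower in iKO cells at day 3, with a median log2 ratio of 0.07, and 1 was higher and 0 lower at day 0. Among all genes, 6.27% were higher and 4.76% lower at day 3, and 2.67% were higher and 0.331% lower at day 0, which also holds for the counts of the lists that follow. Fbp1, which reverses the phosphofructokinase step, was 5.50-fold lower in iKO cells at day 3, with 1.48 CPM in iKO and 8.16 CPM in Ctrl cells. Ldhd, a D-lactate dehydrogenase, had 10.4 CPM in iKO and 3.53 CPM in Ctrl cells at day 3, and 2.20 CPM in iKO and 0.393 CPM in Ctrl cells at day 0. Eno4 had 2.11 CPM in iKO and 1.13 CPM in Ctrl cells at day 0. Pkm, the pyruvate kinase that completes the pathway and was named after its values were seen, had 1382 CPM in iKO and 737 CPM in Ctrl cells at day 3, and 2224 CPM in iKO and 2285 CPM in Ctrl cells at day 0. Its day 3 ratio of 1.87 (1.84 to 1.91) was in the range of the member enzymes, although in iKO cells its day 3 level was below that of day 0.

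Of 12 pyruvate entry genes (pyruvate carriers, pyruvate dehydrogenase and its kinases), 0 were 2-fold apart at day 3 and 8 were at least 1.5-fold higher in iKO cells, with a median log2 ratio of 0.67, where 15.1% of all genes were 1.5-fold higher and 6.27% 2-fold higher. Dlat, a pyruvate dehydrogenase subunit, had 140.4 CPM in iKO and 72.4 CPM in Ctrl cells at day 3, and Mpc1, a mitochondrial pyruvate carrier, had 272 CPM in iKO and 147 CPM in Ctrl cells. At day 0, 1 of the 12 was at least 2-fold higher, where 2.67% of all genes were, namely Pdk4, with 4.13 CPM in iKO and 1.13 CPM in Ctrl cells, and Pdk2 had 50.2 CPM in iKO and 24.7 CPM in Ctrl cells. Of 7 pentose phosphate genes, 0 were 2-fold apart on either day. The median log2 ratio of this list was 0.01 at day 3 and -0.25 at day 0. G6pdx, the first enzyme of the branch, had 165 CPM in iKO and 125 CPM in Ctrl cells at day 3. Rpia, which makes ribose 5-phosphate, had 5.25 CPM in iKO and 6.42 CPM in Ctrl cells at day 3, and 8.21 CPM in iKO and 14.6 CPM in Ctrl cells at day 0. Tkt, the transketolase, had 463 CPM in iKO and 618 CPM in Ctrl cells at day 0.

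Of 12 other HIF pathway components, 0 were 2-fold apart at day 3 and 1 was higher at day 0, with medians of -0.04 and -0.13. The 1 was Hif3a, another alpha subunit, with 62.4 CPM in iKO and 36.6 CPM in Ctrl cells at day 3, and 6.06 CPM in iKO and 1.87 CPM in Ctrl cells at day 0. Vhl, which recognises hydroxylated HIF, had 73.7 CPM in iKO and 94.6 CPM in Ctrl cells at day 3, and Egln2 had 45.8 CPM in iKO and 60.1 CPM in Ctrl cells at day 0. Of 28 further HIF targets above the minimum, 4 were at least 2-fold higher and 0 lower at day 3, with a median log2 ratio of 0.40, where 6.27% of all genes were higher and 4.76% lower. At day 0, 0 were 2-fold apart, with a median of 0.20, where 2.67% of all genes were higher and 0.331% lower. Hmox1, the heme oxygenase that oxidative stress also induces, had 383 CPM in iKO and 75.5 CPM in Ctrl cells at day 3, and 85.2 CPM in iKO and 43.4 CPM in Ctrl cells at day 0. Car12, a carbonic anhydrase, had 156 counts in iKO and 15 in Ctrl cells at day 3, a ratio of 11.1 (6.52 to 20.3). Ddit4, an inhibitor of mTORC1 signalling, had 79.2 CPM in iKO and 39.5 CPM in Ctrl cells at day 0. The 35 genes of this list are regulated by other pathways as well as by HIF.

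Of 14 receptors and related ligands, 8 were above the minimum, of which 2 were higher and 1 lower at day 3, and 0 were 2-fold apart at day 0. Aplnr, the apelin receptor, had 0 counts in both day 3 libraries, and 2 counts in iKO and 1 in Ctrl cells at day 0. Calcrl, part of the adrenomedullin receptor, was 2.93-fold lower in iKO cells at day 3, with 9.81 CPM in iKO and 28.7 CPM in Ctrl cells. Vegfc, a lymphangiogenic ligand, had 3.92 CPM in iKO and 0.995 CPM in Ctrl cells at day 3, and Pgf had 2.16 CPM in iKO and 0.639 CPM in Ctrl cells at day 0. Apln RNA was thus present in libraries that held at most 2 Aplnr counts.

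Marker lists of other cell types differed between genotypes in both directions. Among all genes, 6.27% were at least 2-fold higher and 4.76% lower in iKO cells at day 3. At day 0, 2.67% were higher and 0.331% lower. Of 10 astrocyte markers, 2 were at least 2-fold higher and 0 lower in iKO cells at day 3, and 4 were higher and 0 lower at day 0. Their summed level was 26299 CPM in iKO and 16949.7 CPM in Ctrl cells at day 3, and 4033 CPM in iKO and 2440.4 CPM in Ctrl cells at day 0. Single markers differed from the order of this sum or in the size of their ratio. Apoe alone had 12096 CPM in iKO and 6765 CPM in Ctrl cells at day 3, and Slc1a3 had 5834 and 5788 CPM. In log2 ratio 9 of the 10 were above 0 at day 3 and 1 below, Aldh1l1, with 567 CPM in iKO and 797 CPM in Ctrl cells. Of 9 oligodendrocyte lineage markers above the minimum, 7 were lower in iKO cells at day 3 and 4 at day 0, and the sums over all 10 were 3583 CPM in iKO and 5044 CPM in Ctrl cells at day 3, and 4236 CPM in iKO and 4745 CPM in Ctrl cells at day 0. Of 9 neuron markers above the minimum, 5 were lower in iKO cells at day 3 and 2 higher at day 0, with sums of 919 CPM in iKO and 1744 CPM in Ctrl cells at day 3, and 869 CPM in iKO and 933 CPM in Ctrl cells at day 0. The sum of the 12 mitosis genes was 165 CPM in iKO and 194 CPM in Ctrl cells at day 3, and 2337 CPM in iKO and 4069.5 CPM in Ctrl cells at day 0. All 12 were at least 2-fold lower at day 3 than at day 0 in both genotypes. Of all genes, 11.4% were lower by this limit in iKO and 15.1% in Ctrl cells. The part of these shifts in cell make-up in the values of the glycolysis and hypoxia genes was not tested.

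Endothelial and microglial markers had few reads; endothelium is a known source of Apln and Epas1. The 9 endothelial markers summed to 3.92 CPM in iKO and 3.43 CPM in Ctrl cells at day 3, and 4.27 CPM in iKO and 3.64 CPM in Ctrl cells at day 0. Cldn5 and Emcn had 0 counts in both day 3 libraries, and Cldn5 also in the day 0 Ctrl library. The 8 microglia markers summed to between 1.99 and 9.08 CPM. Of the 8 mural and fibroblast markers, Cspg4, which is also on the oligodendrocyte lineage list, was the exception, with 33.6 CPM in iKO and 99.7 CPM in Ctrl cells at day 3, and 123 CPM in iKO and 121 CPM in Ctrl cells at day 0. With it, the 8 summed to 43.5 CPM in iKO and 114 CPM in Ctrl cells at day 3, and 142 CPM in iKO and 129 CPM in Ctrl cells at day 0. None of the other mural and fibroblast markers exceeded 10.3 CPM in any library.

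Reads that near-identical copies could share were few where counted. The processed pseudogene Gapdh-ps15 had 851 counts in iKO and 435 in Ctrl cells at day 3, and 1026 in iKO and 964 in Ctrl cells at day 0, against 31611 to 56870 for Gapdh. Eno1b had at most 6 counts and Aldoart1 at most 20. The labels do not say how reads were shared among such copies, so Gapdh, Eno1 and Aldoa carry that uncertainty. At the level of transcripts, 2 models of Ldhb received identical counts, 10062 each in the day 3 iKO library. The leading of 10 Vegfa models held 0.986% of the gene's count in iKO and 56.2% in Ctrl cells at day 3, and 26.9% in iKO and 62.3% in Ctrl cells at day 0. Such shares depend on how reads were assigned among overlapping models, and the summed gene count does not.

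The authors' deposited tables list genes that differ between iKO and Ctrl cells. The authors' deposited table for day 3 lists 1774 genes, where the libraries hold 17621, and 8 of the 34 members. Ldhb and Vegfa, at least 2-fold higher here at day 3, are not among them, whereas Pfkp, below 2-fold here, is. In the authors' deposited table for day 3 the log2 ratios are 3.67 for Apln, 2.82 for Ndrg1, 2.13 for Adm, 1.29 for Slc16a1, 1.27 for Tpi1, 1.16 for Slc2a1, 1.11 for Pfkp and 1.03 for Gpi1, all higher in iKO cells. The part of the authors' deposited table for day 0 used here holds 103 genes and 1 member, Adm, with a log2 ratio of 1.04. Each table compares 2 libraries, so its FDR describes reads and not cultures.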

How the data were processed

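Total RNA of 4 libraries was sequenced with a BGI library kit, per the labels' protocols. Each deposited table has an expected count and an unnamed expression value for each of 55122 RefSeq transcripts. HISAT, Bowtie2, StringTie and the mm10 build are named, per the submitters' processing notes. Not given in the sources used here are the counting tool, its strand setting and the annotation release. The header names no unit for the deposited expression value. It was taken as FPKM, because the count divided by value, transcript length and library total had a median of 1.00 in each library. The authors' deposited comparison tables hold, per the file headers, the log2 of iKO over Ctrl and an FDR (an adjusted p-value), and the day 0 table is held only in part.

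Expected counts were summed per gene and rounded. Library sizes were scaled with edgeR 4.0.16 (TMM) in R 4.3.3, over all 17621 genes, and CPM computed from them. Log2 ratios used a pseudocount of 1 CPM. Compared were the 12976 genes that averaged 1 CPM or more. Folds without the pseudocount have exact conditional (Clopper-Pearson) 95% intervals (scipy 1.17.1). With 1 library per group these cover counting error only and not the spread between cultures. Reads are not independent molecules, so counting error itself may be understated. The script was tested on simulated data. No test across conditions was run.

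The members and lists were chosen with earlier results of these data known. Named genes are members at least 1.5-fold apart between genotypes on either day, Hif1a, the isozymes, and the 2 genes of each of the 6 pathway lists with the largest log2 ratio per day. Alternatives were pseudocounts of 0.1 and 5 CPM, minimum levels of 0 and 5 CPM, size factors from DESeq2 1.42.0, library totals, FPKM as deposited, TMM without ribosomal protein and histone genes, and a 1.5-fold limit.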

Additional observations from a re-analysis of the deposited data

Results flagged for a closer look

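Slc16a1 moved in opposite directions in the groups compared. Its ratio of iKO to Ctrl was 2.59 at day 3 and 0.661 at day 0, and its ratio of day 3 to day 0 was 1.54 in iKO and 0.394 in Ctrl cells. Ndrg1 had a ratio of day 3 to day 0 of 1.95 in iKO and 0.314 in Ctrl cells, from 64 counts in iKO and 9 in Ctrl cells at day 3 and 38 in iKO and 29 in Ctrl cells at day 0. With 1 library per group, these differences were not tested.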

How the results depend on the processing

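No paired analysis was possible because each group has 1 library. Of 90 counts of members past the fold under the alternatives, 77 were within 1.5 times the main count. No log2 ratio past 2-fold changed sign, but some near 0 did with library totals and with FPKM: Gapdh, Pfkl, Pfkp, Pgk1, Hif1a and Mxi1 between genotypes at day 0, Hif1a at day 3, Eno2, Gapdh, Pgk1, Tpi1 and Hif1a between days in iKO cells, and Hk1 and Hif1a between days in Ctrl cells. The enzyme median between days in iKO cells, 0.06, became -0.08 with library totals and -0.07 with FPKM. With a pseudocount of 5 CPM, 1 enzyme (main 2) and 0 other members (main 1) were past 2-fold between genotypes at day 0. With library totals, 2 other members were past it at day 0 (main 1) and 1 enzyme for the difference between days (main 2). With deposited FPKM, the difference between days counted 1 enzyme (main 2) and 2 other members (main 4). At 1.5-fold, the enzymes counted 14 between genotypes at day 3 (main 3), 11 between days in Ctrl cells (main 6) and 11 for the difference between days (main 2). At 1.5-fold, the other members counted 10 at day 3 (main 6), 5 at day 0 (main 1), 11 between days in iKO cells (main 6) and 8 for the difference between days (main 4). Library totals moved the median log2 ratio of all genes from -0.06 to 0.06 at day 0, from -0.01 to -0.13 between days in iKO cells, and from 0.06 to -0.13 for the difference between days. The count of all genes higher and lower in iKO cells at day 3 was 813 and 618. It was 430 and 358 when 5 CPM was added to each value, and 477 and 479 with FPKM. At day 0 it was 347 and 43 in the main setting, 706 and 80 when 0.1 CPM was added, and 111 and 13 when 5 CPM was added. Apart from the looser limit, the cause of these moves was not tested. Depth limits Slc16a3, Car9, Ankrd37, Ndrg1 and Hk2 at day 3, and the spread between cultures is unknown for every gene.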
